A study of Mus musculus with 13 samples.

Results

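The comparison described here sets myotubes without the H19/Igf2 imprinting control region against wild-type myoblasts, to measure how far the mutant cells had moved from the wild-type undifferentiated state. The members are 4 of the 13 RNA-seq libraries of the series, taken by genotype, stage and a depth of over 20 M (mega) counts. They are dICR/dICR myotubes 1 and 2 (56.44 and 43.26 M counts) and wild-type myoblasts 1 and 2 (54.54 and 51.67 M counts). Wild-type myotubes 1 to 3, with 35.56, 36.46 and 48.78 M counts, were set beside them as the path of normal cells from the same myoblasts. All cells were primary mouse skeletal muscle cells of mixed background from the hind limbs of pups 2 to 3 days old. Myoblasts were dividing cells kept in calf serum with fibroblast growth factor, and myotubes had spent 24 hours in 1% horse serum. The dICR/dICR cells are homozygous for a deletion of this region, and the labels name no Cre or other driver. Genotype and stage both differ in the main comparison and cannot be told apart within it. The labels do not say that replicates were separate cultures or animals, so p-values measure only the spread between these libraries, which may be technical.

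When myoblasts lose serum and growth factor they leave the cell cycle, switch on myogenin, fuse, and build the sarcomere and the calcium-release machinery. Myogenic factors such as MyoD and myogenin bind E-boxes. Replication and mitotic genes are shut off in the same step through E2F sites and through paired CHR and CCAAT elements. The imprinting control region lies between Igf2, a fetal growth factor gene, and H19, a long noncoding RNA abundant in fetal muscle. On the maternal chromosome it binds CTCF and keeps the shared enhancers from Igf2.

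Promoters of genes on the 2 sides of that switch are shown here because the main results divide along it. Each line gives the 250 bases before a gene's start from RefSeq (GRCm38.p6), 5′ to 3′ on the gene's strand. Atp2a1 encodes the calcium pump of the sarcoplasmic reticulum and Myoz2 a Z-disc protein, each with an E-box (CAGCTG) in capitals. Mcm6 encodes a subunit of the replicative helicase, with E2F matches (TTTCCCGC or TTTGGCGC) in capitals. Cdk1 encodes the mitotic kinase, with CHR (TTTGAA) and CCAAT matches in capitals, and ATTGG is CCAAT on the other strand.
Atp2a1, chr7:126463074-126463323, minus strand: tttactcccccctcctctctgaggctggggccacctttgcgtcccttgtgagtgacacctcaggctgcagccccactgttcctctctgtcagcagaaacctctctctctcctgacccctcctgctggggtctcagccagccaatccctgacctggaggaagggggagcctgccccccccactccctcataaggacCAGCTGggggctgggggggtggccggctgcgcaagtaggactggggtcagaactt
Myoz2, chr3:123034988-123035237, minus strand: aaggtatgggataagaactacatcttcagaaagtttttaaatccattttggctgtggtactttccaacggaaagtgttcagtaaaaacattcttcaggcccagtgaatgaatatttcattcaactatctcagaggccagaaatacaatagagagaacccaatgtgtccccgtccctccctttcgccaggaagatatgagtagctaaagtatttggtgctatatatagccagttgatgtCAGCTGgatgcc
Mcm6, chr1:128359706-128359955, minus strand: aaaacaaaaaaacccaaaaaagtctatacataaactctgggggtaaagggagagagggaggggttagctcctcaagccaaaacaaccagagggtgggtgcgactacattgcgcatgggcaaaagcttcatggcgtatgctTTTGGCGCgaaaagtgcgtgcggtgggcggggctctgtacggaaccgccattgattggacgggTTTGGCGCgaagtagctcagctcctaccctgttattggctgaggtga
Cdk1, chr10:69352913-69353162, minus strand: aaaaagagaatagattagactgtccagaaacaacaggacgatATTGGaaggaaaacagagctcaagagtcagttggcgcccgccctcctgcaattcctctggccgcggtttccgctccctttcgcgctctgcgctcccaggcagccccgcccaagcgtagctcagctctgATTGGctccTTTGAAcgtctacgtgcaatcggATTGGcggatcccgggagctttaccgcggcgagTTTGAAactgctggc

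Both strands were searched, and a window with several matches was counted once. A gene was counted where any of its windows held the letters. CAGCTG was present in 14.7% of the 27025 genes of the table, in 8 of 22 thick filament genes with a window and in 7 of 17 thin filament genes. It was found in 0 of 27 DNA replication genes and 3 of 28 mitosis genes. E2F letters were present in 1.51% of all genes and in 6 of 27 replication genes. TTTGAA was present in 18.3% of all genes and in 10 of 28 mitosis genes, and CCAAT in 37.5% of all genes, 18 of 27 replication genes and 21 of 28 mitosis genes. A match is a description of these letters, not a measured site. For the Z-disc and excitation-contraction lists fewer than 80% of members had a window, so a count over those lists is void.

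The mutant myotubes stood apart from the myoblasts by less than the wild-type myotubes did, in each library. Distance was taken as the root mean square difference of log2 CPM (counts per M counts, scaled by TMM factors, a library-size correction) over 14952 tested genes. The mean distance from the 2 myoblast libraries was 1.24 for dICR/dICR myotube 1 and 1.25 for dICR/dICR myotube 2. It was 1.56, 1.31 and 1.63 for wild-type myotubes 1 to 3. Both mutant libraries were thus nearer to the myoblasts than any of the 3 wild-type ones. The group means were 1.24 (SD 0.0112, n = 2) and 1.502 (SD 0.169, n = 3), and an exact permutation test gave p = 0.2 two-sided, the smallest value that 2 against 3 libraries allow. The 2 myoblast libraries differed from each other by 0.321, the 2 mutant libraries by 0.763, and the wild-type myotubes among themselves by 0.997 to 1.21.

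On the first principal component, which held 50.9% of the variance, the myoblasts lay at -98.42 and -101.18 and the mutant myotubes at -14.33 and 18.55. Wild-type myotubes lay at 76.64, 27.56 and 91.18. The second component, with 21.5% of the variance, put the mutant libraries at -84.69 and -47.67 and the other 5 libraries between -13.01 and 43.22. The mutant libraries were therefore both short of the wild-type myotubes on the first axis and away from the other 5 libraries on the second. Wild-type myotube 2 was the wild-type library nearest to them, at 1.07 and 0.969. From wild-type myotubes 1 to 3, dICR/dICR myotube 2 stood at 1.105, 0.969 and 1.124, and dICR/dICR myotube 1 at 1.351, 1.073 and 1.452. The wild-type myotubes were 0.997 to 1.208 from each other, so dICR/dICR myotube 2 was about as near to them as they were to each other.

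**Figure D1:**
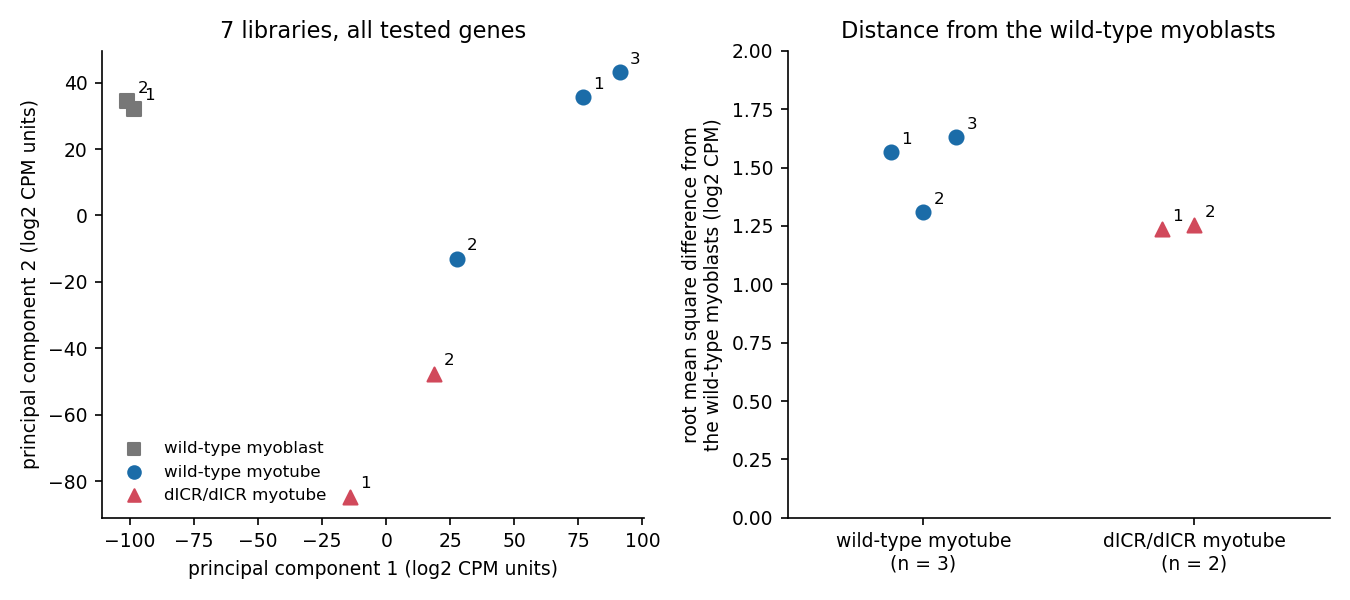
Left, the 7 libraries on the first 2 principal components of log2 CPM over the tested genes, numbered by replicate. Right, root mean square difference of each myotube library from the 2 wild-type myoblast libraries (log2 CPM). The 2 dICR/dICR libraries lie at 1.24 and 1.25 and the 3 wild-type ones between 1.31 and 1.63.

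Across the tested genes, 697 rose (4.66%) and 596 fell (3.99%) in dICR/dICR myotubes against the myoblasts, at an adjusted p under 0.05 (edgeR quasi-likelihood with Benjamini-Hochberg adjustment). From the same myoblasts to wild-type myotubes, 1731 rose (11.6%) and 1587 fell (10.6%). These 2 comparisons share the myoblast libraries, so the difference between them was tested directly, as dICR/dICR minus wild-type myotubes. There 41 genes were higher (0.274%) and 65 lower (0.435%) in the mutant. The median absolute log2 fold change over all tested genes was 0.505 on the mutant path and 0.671 on the wild-type path. Among called genes it was 2.44 on the mutant path and 1.85 on the wild-type path. The wild-type path had 3 myotube libraries and the mutant path 2. The fit takes 1 spread per gene for all 3 groups, and its p-values and standard errors assume that spread to be equal. The 2 myoblast libraries differed by only 0.321, and the myotube libraries of a group by 0.763 or more. With only the 2 groups compared in each fit, 2740 genes were called on the mutant path and 2916 on the wild-type path. The gap between the 2 counts thus depended on the fit. The count of called genes on the mutant path depended on single libraries. It was 25 without wild-type myoblast 1 and 24 without wild-type myoblast 2, where 2054 and 1952 genes had an unadjusted p under 0.05. Dropping a mutant library gave 408 (the first) or 361 (the second), and dropping wild-type myotube 2 gave 1988.

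**Figure D2:**
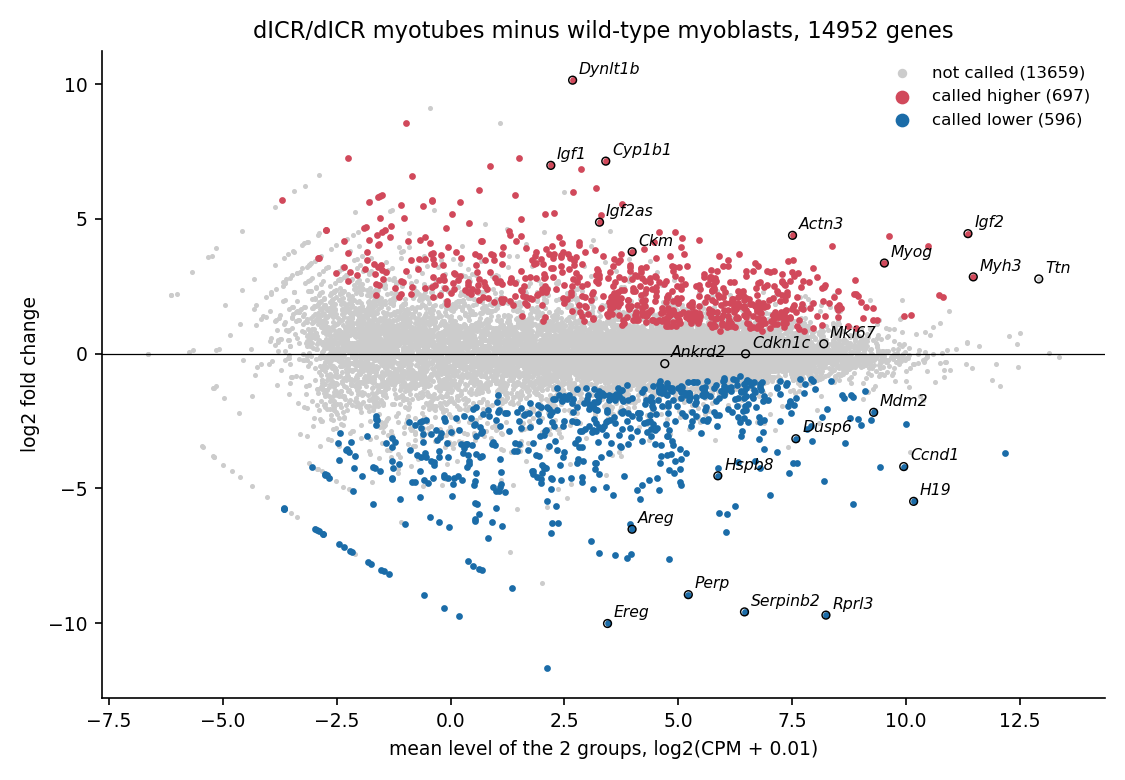
Log2 fold change of dICR/dICR myotubes (n = 2) against wild-type myoblasts (n = 2) for each of 14952 genes, over the mean level of the 2 groups on a log2 scale. Red points are the 697 genes called higher, blue points the 596 called lower and grey points those not called. H19 lies at -5.48 and Igf2 at 4.45, while Cdkn1c, Mki67 and Ankrd2 lie near 0.

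Genes that change on normal differentiation were taken from other libraries, and the mutant myotubes were described over them. Genotype and stage both differ in the mutant values, which therefore do not measure how far the mutant cells had differentiated. The dICR/dICR myoblasts were among the shallow libraries and were not the baseline. In the 6 shallow libraries of the series (20 M counts or fewer), wild-type myotubes 4 and 5 were compared with wild-type myoblasts 3 and 4, giving 1414 genes that rose (11.2%) and 1431 that fell (11.4%). Of the former, 1397 were tested in the deep libraries. Among these, 361 (25.8%) were higher and 17 lower in dICR/dICR myotubes against the deep myoblasts, with a median log2 fold change of 0.87. In wild-type myotubes 840 (60.1%) were higher and 4 lower, with a median of 1.43. By library the median difference from the myoblasts was 0.71 and 0.95 in the mutant and 1.32, 1.18 and 1.49 in wild type. Each mutant library was below each wild-type one.

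Of the genes that fell in the shallow libraries, 1428 were tested in the deep ones. Here 161 (11.3%) were lower and 6 higher in the mutant myotubes, with a median of -0.59. In wild-type myotubes 616 (43.1%) were lower and 6 higher, with a median of -1.41. The medians by library were -0.39 and -0.92 in the mutant and -1.65, -0.97 and -1.84 in wild type. The direct test between the myotube groups called 2 of the 1397 higher and 25 lower in the mutant, and 15 of the 1428 higher and 1 lower.

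Contractile and calcium-handling genes rose together in the mutant myotubes. Of 98 tested genes in 4 lists (thick filament, thin filament, Z-disc, and excitation-contraction coupling with the neuromuscular junction), 45 rose in dICR/dICR myotubes and 0 fell, beside 4.66% and 3.99% of all genes, with a median log2 fold change of 1.86. On the wild-type path 71 rose and 1 fell, with a median of 2.29. Over all genes tested the medians were 0.031 and 0.024. Between the 2 myotube groups edgeR called 1 of the 98, Actn3, higher in the mutant, and 34 had an unadjusted p under 0.05. DESeq2 called 2 higher and 15 lower in the mutant, and edgeR without wild-type myotube 2 called 2 higher and 14 lower, so the number that were lower in the mutant depended on the tool and on that library. The mean log2 CPM of the thin filament list stood at 5.33 and 5.12 in the myoblasts, 6.54 and 7.30 in the mutant myotubes, and 7.33, 7.38 and 7.45 in the wild-type myotubes. For the thick filament it stood at 5.42 and 5.29, then 6.56 and 7.59, then 7.26, 7.47 and 7.94. The first mutant library was below every wild-type myotube library in each of the 4 lists, and the second lay within or just below the wild-type range. Without either myoblast library 0 of the 98 were called in edgeR, against 65 higher and 2 lower in DESeq2 on all libraries and 72 at an unadjusted p under 0.05 in edgeR. Without dICR/dICR myotube 2 the count was 13.

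Myh3, the embryonic myosin heavy chain, stood at 752.3 and 637.4 CPM in the myoblasts and at 3354 and 6652 CPM in the mutant myotubes. Wild-type myotubes held 9992, 8256 and 11980 CPM. The 3 groups did not overlap, and the change on the mutant path was 2.85 ± 0.48 (SE) on the log2 scale (adjusted p = 0.0160, edgeR). Actc1, the cardiac actin of early muscle, went from 161.1 and 182.5 CPM to 1544 and 3865 CPM, a change of 3.98 ± 0.60 on the log2 scale (adjusted p = 0.0111), with 4462 to 8896 CPM in wild type. Tmod1, which caps thin filaments, had the largest change of the thin filament list at 4.29 ± 0.39 (adjusted p = 0.00348). It stood at 3.133 and 3.475 CPM in the myoblasts and 52.31 and 76.64 CPM in the mutant, against 31.81 to 52.73 CPM in wild type. Mybpc1, slow myosin-binding protein C, rose by 3.07 ± 0.41 (adjusted p = 0.00907). Its mutant levels of 148.7 and 345.4 CPM were above the 113.4 to 144 CPM of wild-type myotubes. Ttn, the giant spring of the sarcomere, did not pass, with 2441 and 1503 CPM in the myoblasts and 7280 and 19650 CPM in the mutant (2.77 ± 0.81, adjusted p = 0.0786).

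Among the calcium-handling genes, Atp2a1 went from 27.91 and 27.80 CPM to 197.5 and 261.5 CPM, against 162 to 386 CPM in wild type. Its mutant libraries lay inside the wild-type range, and its log2 fold change from the myoblasts was 3.04 ± 0.42 (adjusted p = 0.0093, edgeR). Ryr3, a ryanodine receptor of immature muscle, rose by 3.68 ± 0.43 and Hrc, a calcium-binding protein of the reticulum, by 3.25 ± 0.38 (adjusted p = 0.00635 for each). Trdn, the triadin that links release channel and calsequestrin, rose by 2.86 ± 0.26 (adjusted p = 0.00348). Myoz2, whose promoter is printed above, rose from 3.032 and 2.681 CPM to 18.64 and 36.69 CPM, with 18.49 to 22.12 CPM in wild type. Ldb3, a Z-disc PDZ-LIM protein, rose by 2.97 and the titin-associated ankyrin protein Ankrd23 by 2.88. Chrna1, the muscle acetylcholine receptor subunit, had a log2 fold change of 0.80 that did not pass (adjusted p = 0.301).

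Actn3, the fast-fibre alpha-actinin that crosslinks thin filaments at the Z-disc, was outside this order. It stood at 15.87 and 17.29 CPM in the myoblasts, 31.66, 19.83 and 63.14 CPM in wild-type myotubes, and 358.3 and 336.5 CPM in the mutant. The mutant libraries were above all others, and the change was 4.39 ± 0.54 against the myoblasts (adjusted p = 0.0071, edgeR) and 3.18 ± 0.44 against the wild-type myotubes (adjusted p = 0.0326). On the wild-type path the change of 1.21 did not pass (adjusted p = 0.0898). The call between the myotube groups was lost in 7 of 14 alternatives. Among these were a fit of only the 2 groups, a replicate block, and leaving out wild-type myotube 1. Leaving out either dICR/dICR myotube library ended the call too.

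The regulators of the myogenic programme moved in the same direction with smaller steps. Of 24 tested, 9 rose and 0 fell on the mutant path (median 0.83), beside 4.66% and 3.99% of all genes, and 11 rose and 4 fell on the wild-type path (median 1.40). On the mutant path 2 rose without dICR/dICR myotube 2 (median 0.55), 6 without dICR/dICR myotube 1, and 0 without either myoblast library. Myog, which drives terminal differentiation, stood at 132.8 and 128.5 CPM in the myoblasts and at 1147 and 1538 CPM in the mutant myotubes. Wild-type myotubes held 5915, 2330 and 3816 CPM, above both mutant libraries. The mutant change was 3.36 ± 0.49 (adjusted p = 0.0107, edgeR), the wild-type change 4.94 (adjusted p = 0.00203), and the difference between the myotube groups, -1.58 ± 0.44, did not pass (adjusted p = 0.148). The Myog call on the mutant path was lost without dICR/dICR myotube 2, without either myoblast library, and in the fit of all 13 libraries with the depth set as a term (2.25, adjusted p = 0.125). Over its 14 alternatives the adjusted p ranged from 7.96e-11 to 0.144.

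Smyd1, a muscle methyltransferase, rose by 2.88 and Rbm24, a muscle splicing factor, by 2.64. Eya4, a transcription cofactor, rose by 2.60. Mef2c went from 125.9 and 115.3 CPM to 320 and 603.2 CPM in the mutant, below the 790.2 to 1012 CPM of wild type. Myf6, the late myogenic factor, was low throughout, at 2.185 and 2.152 CPM in the myoblasts, 7.949 and 17.08 CPM in the mutant and 1.834 to 3.995 CPM in wild-type myotubes. It rose on the mutant path (2.53 ± 0.56, adjusted p = 0.0354), and its difference between the myotube groups did not pass (2.27, adjusted p = 0.0872). Myod1 had a log2 fold change of 1.00 (adjusted p = 0.154), and Pax7, the satellite cell factor, one of -1.25 (adjusted p = 0.172). Neither passed on the mutant path, and both passed on the wild-type path, at 1.59 and -1.88. Their differences between the myotube groups, -0.59 and 0.625, did not pass (adjusted p = 0.415 and 0.492, edgeR). For both genes the libraries of the myotube groups overlapped.

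Ankrd2, a stretch-sensing ankyrin protein of differentiated muscle, stood at the level of the myoblasts in the mutant. It stood at 31.2 and 27.49 CPM in the myoblasts, 1317, 558.7 and 667.6 CPM in wild-type myotubes and 11.26 and 34.19 CPM in the mutant. The mutant change was -0.37 ± 0.57 (adjusted p = 0.739, edgeR), the wild-type change 4.85 (adjusted p = 0.00403), and the difference between the myotube groups -5.22 ± 0.66 (adjusted p = 0.0249). Hspb8, a small heat shock protein that works with Bag3, fell on the mutant path. It went from 112.2 and 111.5 CPM to 1.779 and 7.947 CPM, a change of -4.53 ± 0.96 on the log2 scale (adjusted p = 0.0306), while wild-type myotubes held 512.9, 131 and 743.7 CPM. Of its 24-gene list of heat shock and stress genes, 7 rose and 1 fell on the wild-type path. On the mutant path 3 rose, beside 4.66% of all genes, among them the muscle chaperones Hspb3 at 2.77 and Hspb2 at 1.92. Only Hspb8 fell, and 1 of 24 is a share near the 3.99% of all genes.

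Fusion genes were split. Of 26 tested, 11 rose and 5 fell on the wild-type path (median 0.79). In the mutant 6 rose and 2 fell (median 0.17), beside 4.66% and 3.99% of all genes. The 2 fusogens rose: myomaker (Tmem8c in the table) went from 13.45 and 23.15 CPM to 85.87 and 286.7 CPM (3.35 ± 0.83, adjusted p = 0.0489, edgeR). Myomixer (Gm7325) went from 5.42 and 6.192 CPM to 48.54 and 59.15 CPM (3.21 ± 0.53, adjusted p = 0.0152). Cdh15, the M-cadherin of myoblast contacts, rose by 1.91, with mutant levels of 872.2 and 753.1 CPM and wild-type myotube levels of 724.9 to 840.4 CPM. Il4ra, the interleukin receptor, fell by 1.86, and Dock5, a Rac exchange factor, fell by 1.65. Of 20 Notch and Id genes, 2 rose and 5 fell on the wild-type path (median -0.03). In the mutant 1 rose, a share near the 4.66% of all genes, and 3 fell, beside 3.99% (median -0.57). The Notch ligand Dll1 rose by 1.33 in the mutant. The myogenic repressors Id1, Id3 and Id4 had log2 fold changes of -2.69, -1.88 and -2.86.

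**Figure D3:**
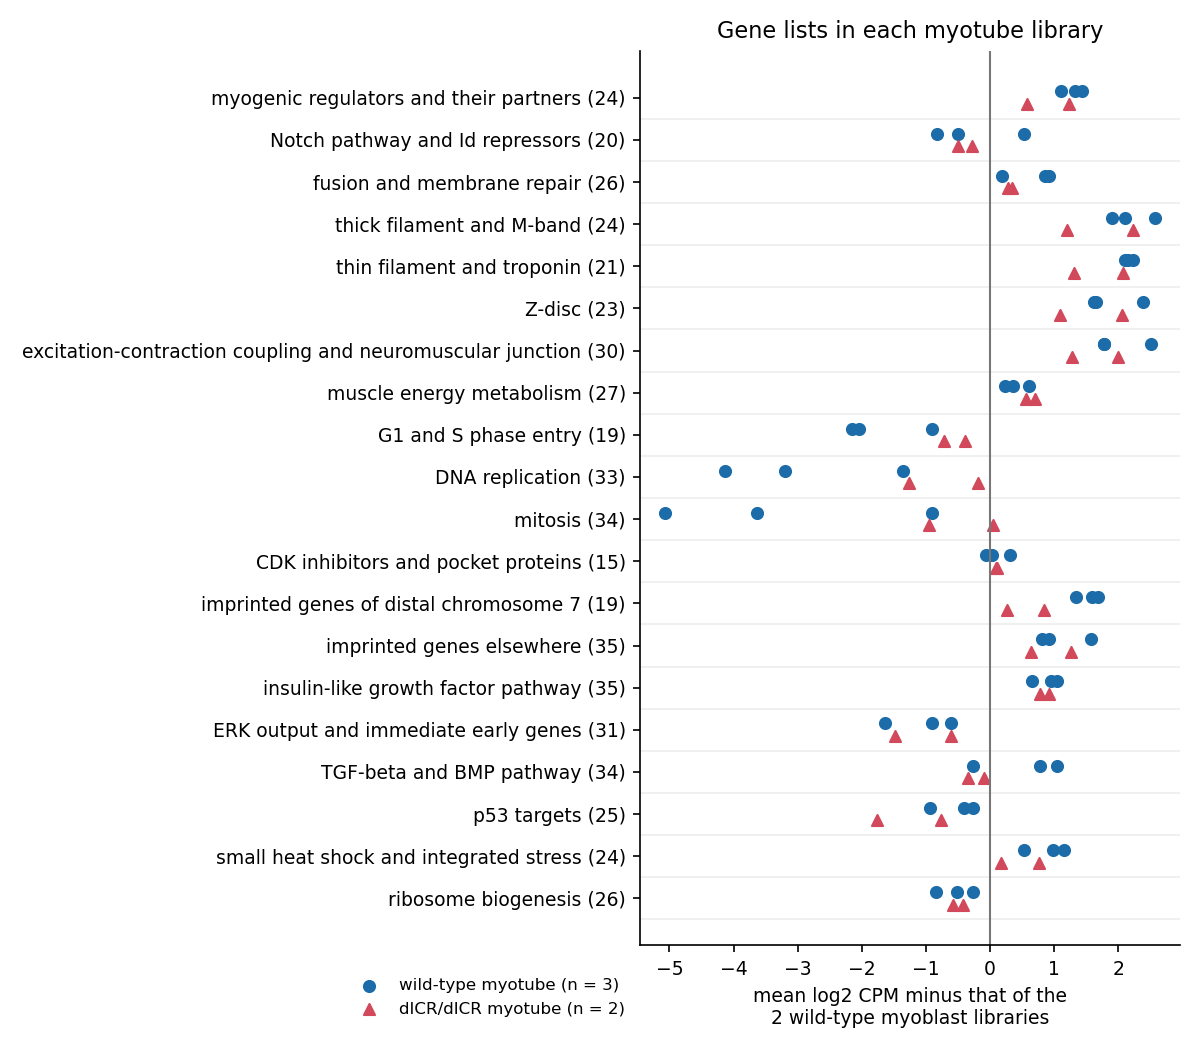
Mean log2 CPM of each gene list in each myotube library minus its mean in the 2 wild-type myoblast libraries, with the number of tested genes in brackets. Red triangles are the 2 dICR/dICR libraries and blue circles the 3 wild-type ones. The contractile lists lie to the right of 0 in all 5 libraries, while the mutant libraries lie at -0.18 and -1.27 for DNA replication and at 0.05 and -0.95 for mitosis.

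On average the replication and mitosis genes lay near or below the level of the myoblasts in the mutant myotubes, and the libraries of each myotube group were uneven. Of 67 replication and mitosis genes, 0 were called in either direction on the mutant path with edgeR, 1 had an unadjusted p under 0.05, DESeq2 called 1 lower and limma voom 0. Their median log2 fold change was -0.54, and 31 of 33 replication genes and 25 of 34 mitosis genes had a negative value. On the wild-type path 0 rose and 17 fell, with a median of -2.28. The mean log2 CPM of the 34 mitosis genes was 6.53 and 6.48 in the myoblasts and 6.56 and 5.56 in the mutant myotubes. In wild-type myotubes it was 2.87, 5.61 and 1.44. For mitosis dICR/dICR myotube 1 was at the level of the myoblasts, dICR/dICR myotube 2 and wild-type myotube 2 were lower and close to each other (-0.95 and -0.90 from the myoblasts), and wild-type myotubes 1 and 3 were far below. The 33 replication genes gave 6.22 and 6.23, then 6.04 and 4.95, then 3.03, 4.86 and 2.08. There too dICR/dICR myotube 2 and wild-type myotube 2 were close, at -1.27 and -1.36 from the myoblasts.

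Between the 2 myotube groups 0 of the 67 were called with edgeR, although all 33 replication genes and all 34 mitosis genes had a positive difference, 23 had an unadjusted p under 0.05 and DESeq2 called 10 higher. That test depends on wild-type myotube 2. Without it 62 of the 67 were higher in the mutant myotubes than in the wild-type ones, 67 fell on the wild-type path, and 2 fell on the mutant path. The mutant values also spread: without dICR/dICR myotube 1 the median of the mitosis list was -1.01, and without dICR/dICR myotube 2 it was 0.10. In such bulk libraries fewer cycling cells and less of these transcripts per cell cannot be told apart.

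Mki67, the marker of cycling cells, stood at 283.9 and 227.9 CPM in the myoblasts and 441.2 and 218.7 CPM in the mutant myotubes. Wild-type myotubes held 12.93, 229.7 and 6.651 CPM, so that only wild-type myotube 2 reached the level of the other groups. Its change on the mutant path was 0.37 ± 1.39 (adjusted p = 0.901, edgeR). Mcm6 stood at 190.8 and 189 CPM, then 183 and 59.92 CPM in the mutant, and 10.44, 71.64 and 3.013 CPM in wild type. Cdk1 stood at 218.4 and 223.1 CPM, then 190.5 and 82.16 CPM, and 13.99, 69.11 and 5.178 CPM. For both, the first mutant library was near the level of the myoblasts and the second near that of wild-type myotube 2.

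The genes that open the cell cycle did not all follow the replication genes. Ccnd1, the D-type cyclin induced by growth factors, went from 2020 and 1727 CPM in the myoblasts to 76.63 and 129.2 CPM in the mutant, a change of -4.19 ± 0.35 on the log2 scale (adjusted p = 0.00299, edgeR). Wild-type myotubes held 52.08, 67.11 and 65.15 CPM, and the difference between the myotube groups did not pass (0.74, adjusted p = 0.245). Ccnd2 also fell, by 1.39. Ccnd3, the cyclin of differentiating muscle, rose by 1.35, the kinase gene Cdk2 by 1.11 and E2f2 by 1.15. Cdk2 stood at 145.9 and 111.6 CPM in the mutant and at 53.97 to 71.35 CPM in the other 5 libraries. Of 19 G1 and S phase entry genes, 3 rose and 2 fell on the mutant path, beside 4.66% and 3.99% of all genes. Their median was -0.62. With library size in place of TMM or with a replicate block 0 rose on that path, while DESeq2 and limma voom each called 3 higher. On the wild-type path 1 rose and 10 fell (median -1.40).

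Of 15 genes for CDK inhibitors and pocket proteins 1 rose, a share near the 4.66% of all genes: Gas1, a growth arrest gene, by 2.81 ± 0.70 (adjusted p = 0.0496, edgeR). Cdkn1c, the imprinted inhibitor p57 that is induced as muscle cells leave the cycle, stood at 90.04 and 88.40 CPM in the myoblasts and 64.42 and 113.5 CPM in the mutant. The wild-type myotubes held 274, 1094 and 1140 CPM, all above both other groups. The mutant change was 0.00 ± 0.61 (adjusted p = 0.998), the wild-type change 3.23 (adjusted p = 0.0141), and the difference between the myotube groups -3.23 ± 0.65 (adjusted p = 0.0783), which did not pass. Cdkn1a, the inhibitor p21, stood at 303.1 and 707.4 CPM in the mutant and 741 to 1115 CPM in wild-type myotubes, with a mutant change of 1.09 (adjusted p = 0.163).

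H19 checks the labels of the mutant libraries. It stood at 2367 and 2129 CPM in the myoblasts and at 52.61 and 48.31 CPM in the dICR/dICR myotubes, while wild-type myotubes held 26870, 17810 and 14760 CPM. The groups were ordered without overlap, with the mutant lowest. H19 fell by 5.48 on the log2 scale on the mutant path (SE 0.54, adjusted p = 0.00395, edgeR), rose by 3.14 on the wild-type path (adjusted p = 0.00541), and had a value of -8.62 ± 0.62 between the myotube groups (adjusted p = 0.00504). Igf2 went the other way. It stood at 171 and 288.1 CPM in the myoblasts, 2408 and 7642 CPM in the mutant and 1241, 1416 and 2194 CPM in wild-type myotubes. Its change was 4.45 ± 0.67 on the mutant path (adjusted p = 0.0112) and 2.82 on the wild-type path (adjusted p = 0.0169), and the difference of 1.64 between the myotube groups did not pass (adjusted p = 0.187). Igf2as overlaps Igf2 on the other strand, and the sources used here do not give the strand setting of the counts, so its rise from 0.5759 and 0.688 CPM to 17.34 and 19.94 CPM is uncertain.

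**Figure D4:**
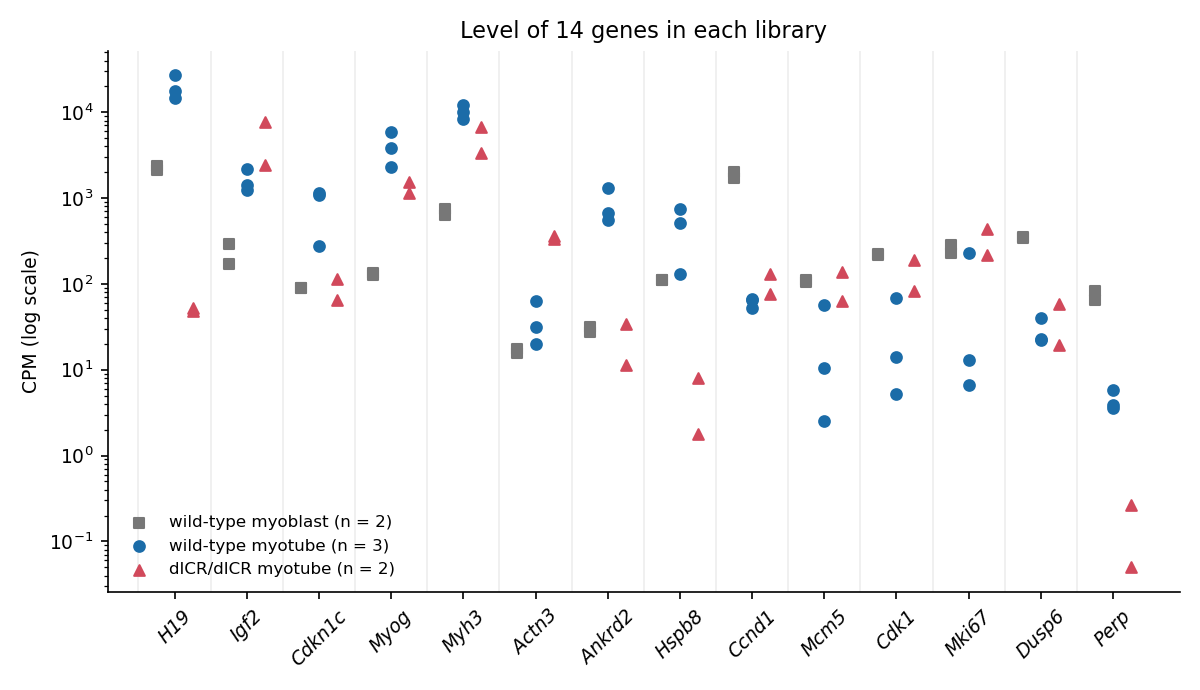
Level of 14 genes in each library as CPM on a log axis: wild-type myoblasts (grey squares, n = 2), wild-type myotubes (blue circles, n = 3) and dICR/dICR myotubes (red triangles, n = 2). H19 and Hspb8 are lower in both mutant libraries than in the other 5, Actn3 is higher, and Cdkn1c and Ankrd2 lie at the level of the myoblasts.

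The distal chromosome 7 imprinted region and its neighbours had 19 tested genes. On the wild-type path 9 rose and 1 fell, with a median of 1.92. On the mutant path 5 rose and 2 fell, with a median of 0.44, beside 4.66% and 3.99% of all genes. The 5 are Igf2, Igf2as, Lsp1 and the troponin genes Tnni2 and Tnnt3. Besides H19, the transporter gene Slc22a18 fell, by 4.96 ± 0.95 (adjusted p = 0.0225, edgeR), from 3.116 and 5.116 CPM to 0.04989 and 0.2189 CPM. It also fell in wild-type myotubes, to 0.1406 to 0.6204 CPM. Of 35 imprinted genes elsewhere, 12 rose and 0 fell on the wild-type path (median 1.01). On the mutant path 4 rose and 0 fell (median 0.80), beside 4.66% and 3.99% of all genes. Grb10, an adaptor that dampens insulin and IGF receptor signalling, went from 40.51 and 37.12 CPM to 381 and 864.8 CPM (4.0 ± 0.59, adjusted p = 0.0107), above the 119.3 to 318.4 CPM of wild type, although the difference between the myotube groups did not pass (1.36, adjusted p = 0.207). Gatm, Ddc and Igf2r, the clearance receptor of Igf2, rose by 2.37, 2.32 and 1.32.

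In the insulin-like growth factor list 10 of 35 rose and 1 fell on the wild-type path (median 0.74). On the mutant path 7 rose and 0 fell (median 0.51), beside 4.66% and 3.99% of all genes. Ligands come first: besides Igf2, Igf1 was near the detection floor in the myoblasts at 0.05081 and 0.08821 CPM and stood at 6.585 and 11.62 CPM in the mutant (6.98 ± 1.32, adjusted p = 0.0222, edgeR). Wild-type myotubes held 0.6326, 9.899 and 4.352 CPM, a range that overlapped the mutant. Of the binding proteins, Igfbp2 rose by 2.87, and Igfbp5 rose from 101.5 and 142.1 CPM to 854.1 and 772.1 CPM (2.74 ± 0.60, adjusted p = 0.0347). Wild-type myotubes held 132.5, 390.6 and 115.7 CPM of Igfbp5, below both mutant libraries, and the difference between the myotube groups was 1.93 (adjusted p = 0.138). The ubiquitin ligase gene Trim63, a FoxO target, rose by 2.80.

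The ligand genes Ereg and Areg and several genes of ERK output were among the genes that fell in the mutant myotubes. Ereg and Areg encode the epidermal growth factor receptor ligands epiregulin and amphiregulin. Areg went from 30.57 and 32.02 CPM to 0.2494 and 0.4378 CPM, a change of -6.51 ± 0.44 on the log2 scale (adjusted p = 0.00246, edgeR), and stood at 0.6473 to 0.8901 CPM in wild-type myotubes. Ereg had 2519 counts over the 2 myoblast libraries and 2 counts over the 2 mutant libraries, a ratio of 1182 after scaling by total counts (95% exact interval 327 to 9770, counting error only). Wild-type myotubes held 283 counts of Ereg in 3 libraries. Of 31 genes of ERK output and immediate early response, 3 rose and 10 fell on the wild-type path (median -0.67). On the mutant path 2 rose and 7 fell (median -0.80), beside 4.66% and 3.99% of all genes. The feedback phosphatases Dusp4, Dusp5 and Dusp6 had log2 fold changes of -2.36, -4.31 and -3.15, and the ETS factors Etv1 and Etv4 had -2.60 and -4.25. Dusp6 stood at 338.4 and 350 CPM in the myoblasts, 19.36 and 57.97 CPM in the mutant and 22.28 to 40.11 CPM in wild-type myotubes. The mutant libraries were on either side of the wild-type range. Between the myotube groups edgeR called 0 of the 31, DESeq2 called 1 higher and 1 lower, and edgeR without wild-type myotube 2 called 2 higher. Without dICR/dICR myotube 1, 1 of the 31 fell on the mutant path, without dICR/dICR myotube 2 there were 4, and without either myoblast library 0.

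Of 25 p53 targets, 3 rose and 5 fell on the wild-type path (median -0.27). On the mutant path 1 rose, a share near the 4.66% of all genes, and 5 fell, beside 3.99% (median -0.90). The list lay at -1.76 from the myoblasts in dICR/dICR myotube 1 and at -0.77 in dICR/dICR myotube 2, the latter inside the wild-type range of -0.93 to -0.27. Without dICR/dICR myotube 1 the list had 1 gene that fell and a median of -0.50, without dICR/dICR myotube 2 it had 5 and -1.65, and without either myoblast library 1 fell. Perp, a membrane protein gene, went from 65.11 and 83.60 CPM in the myoblasts to 0.04989 and 0.2627 CPM in the mutant, with 3.549, 3.884 and 5.826 CPM in wild-type myotubes. Each mutant library was under each wild-type one, with a log2 fold change of -8.94 ± 0.74 from the myoblasts (adjusted p = 0.00287, edgeR) and -4.87 ± 0.63 from the wild-type myotubes (adjusted p = 0.0268). Mdm2, the ubiquitin ligase that restrains p53, fell by 2.17, Fas, a death receptor, by 2.16, and Polk, a DNA polymerase, by 2.18. Pmaip1, the death gene Noxa, stood at 117.4 and 102.6 CPM, then 27.55 and 60.53 CPM in the mutant, and 198.4 to 291.7 CPM in wild type. Its difference between the myotube groups was -2.39 (adjusted p = 0.0462), and its change on the mutant path, -1.32, did not pass (adjusted p = 0.0806). Perp and Pmaip1 were the 2 genes of the list called lower between the myotube groups. That count was 0 with only the 2 groups compared, with library size in place of TMM and with a replicate block. Without wild-type myotube 1 or 3 it was also 0, and with DESeq2 it was 4. Ripk3, the kinase of necroptosis, went from 18.92 and 19.26 CPM to 0.03326 and 0.1970 CPM, against 2.038 to 5.907 CPM in wild type, -5.26 ± 0.81 between the myotube groups (adjusted p = 0.0424).

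Of 34 TGF-beta and BMP pathway genes, 8 rose and 1 fell on the wild-type path. On the mutant path 5 rose, beside 4.66% of all genes, and 1 fell, a share near the 3.99% of all genes. The BMP antagonists Chrd and Nog rose by 2.74 and 2.51 and Tgfb3 by 1.92. The antagonist Grem1 had a change of -4.61 ± 0.62 on the log2 scale (adjusted p = 0.0092, edgeR). Of 27 energy metabolism genes, 9 rose and 7 fell on the wild-type path. On the mutant path 6 rose and 2 fell, beside 4.66% and 3.99% of all genes. Ckm, the muscle creatine kinase, went from 2.405 and 1.888 CPM to 35.17 and 23.88 CPM, under the 47.62 to 87.99 CPM of wild type. The insulin-responsive glucose transporter gene Slc2a4 rose by 2.70, and Slc2a1, the transporter of growing cells, fell by 1.93. Of 26 ribosome biogenesis genes 0 rose and 1 fell, Nhp2 by 1.06, a share near the 3.99% of all genes that fell. On the wild-type path 1 rose and 9 fell.

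The highest and lowest genes of the mutant path, by the fixed naming rule, added several outside the lists. Besides Igf2, Igf2as and Actn3, the 12 highest were Dynlt1b, Cyp1b1, Afap1l2, Myo7a, Dync1i1, Cpne4, Nrep, Adora1 and Pmp22. Adora1, the adenosine A1 receptor, stood at 2.202 and 1.835 CPM in the myoblasts, 31.23 and 60.57 CPM in the mutant and 55.07 to 65.30 CPM in wild-type myotubes (4.51 ± 0.39, adjusted p = 0.00312, edgeR). Pmp22, a peripheral myelin protein gene, rose from 2.439 and 2.734 CPM to 72.04 and 44.97 CPM (4.50 ± 0.78, adjusted p = 0.0169), above the 5.236 to 28.81 CPM of wild type. Cpne4, a calcium-dependent membrane-binding protein gene, stood at 39.21 and 13.88 CPM in the mutant and under 1 CPM in the other 5 libraries. Cyp1b1, a cytochrome P450, was uneven, at 39.29 and 2.802 CPM in the mutant and 4.498 to 45.83 CPM in wild type. Dynlt1b had 1378 counts in the mutant, 1 in the myoblasts and 3 in wild-type myotubes. It has near-identical copies, so its counts are uncertain.

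The 12 lowest were Ereg, Areg, Perp and Ripk3, with Rprl3, Serpinb2, Gpr97, BC002163, Nr1h5, AI593442, Irx1 and Ano1. Serpinb2, a protease inhibitor gene, went from 173.2 and 176.9 CPM to 0.3492 and 0.08757 CPM and stood at 0.1054 to 2.299 CPM in wild-type myotubes. Ano1, a calcium-activated chloride channel gene, went from 133.1 and 128.8 CPM to 0.6652 and 2.014 CPM. Wild-type myotubes held 2.098 to 3.725 CPM of it. Both genes were thus low in all 5 myotube libraries. Irx1, a homeobox gene, differed from them: it stood at 15.89 and 17.94 CPM in the myoblasts, 6.185 to 12.89 CPM in wild-type myotubes and 0.1164 and 0.1532 CPM in the mutant (-6.96 ± 0.57 from the myoblasts, adjusted p = 0.00287, edgeR). Rprl3 and BC002163 were also near 0 only in the mutant, at 0.6485 and 0.8100 CPM against 559.4 to 1279 CPM, and at 0.1497 and 0.1532 CPM against 24.53 to 38.55 CPM. Rprl3 is a small RNA gene with near-identical copies, so its counts are uncertain.

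The direct test between the myotube groups called genes whose 2 paths ended at different levels. Hhip, which binds and restrains hedgehog ligands, fell in wild-type myotubes but not by the test in the mutant. It stood at 87.97 and 73.72 CPM in the myoblasts, 56.29 and 26.64 CPM in the mutant and 2.109, 1.645 and 0.5357 CPM in wild type, a difference of 4.87 ± 0.58 between the myotube groups (adjusted p = 0.0198, edgeR). Osbp2, an oxysterol-binding protein gene, had the same order, at 56.49 and 53.82, then 51.70 and 16.66, then 1.230 to 1.607 CPM (4.55 ± 0.47, adjusted p = 0.0141). Eps8, an actin regulator and substrate of the epidermal growth factor receptor, fell on both paths, from 203.3 and 195.7 CPM to 35.82 and 37.46 CPM in the mutant and 2.038 to 4.828 CPM in wild type (3.31 ± 0.34, adjusted p = 0.0141).

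Gem, a small GTPase that inhibits calcium channels, moved in opposite directions. It stood at 39.07 and 35.19 CPM in the myoblasts, 9.844 and 2.342 CPM in the mutant and 108.1 to 146.7 CPM in wild type, with log2 fold changes of -2.60 (adjusted p = 0.0369, edgeR) and 1.79 (adjusted p = 0.0493). Dcaf12l1 rose by 5.41 in wild-type myotubes and had -0.78 in the mutant (adjusted p = 0.627). Itgb7, an integrin subunit gene, and Kbtbd11 had positive values in the mutant, 2.07 and 1.06, that did not pass, and fell in wild type by 1.68 and 2.18. Tceal3 completes the 8 lowest, at 0.1995 and 0.7881 CPM in the mutant and 8.469 to 22.66 CPM in wild type. These calls were sensitive to single libraries: of the 16 genes named by this test, leaving out a myoblast library left 3 that passed. Dropping wild-type myotube 1 left 8, dropping wild-type myotube 3 left 6, and dropping dICR/dICR myotube 2 left 12. Dropping dICR/dICR myotube 1 left 0, where 1093 genes had an unadjusted p under 0.05. Over all genes the count was then 0 in edgeR, 1375 without wild-type myotube 2, and 1023 in DESeq2 on all 7 libraries.

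**Figure D5:**
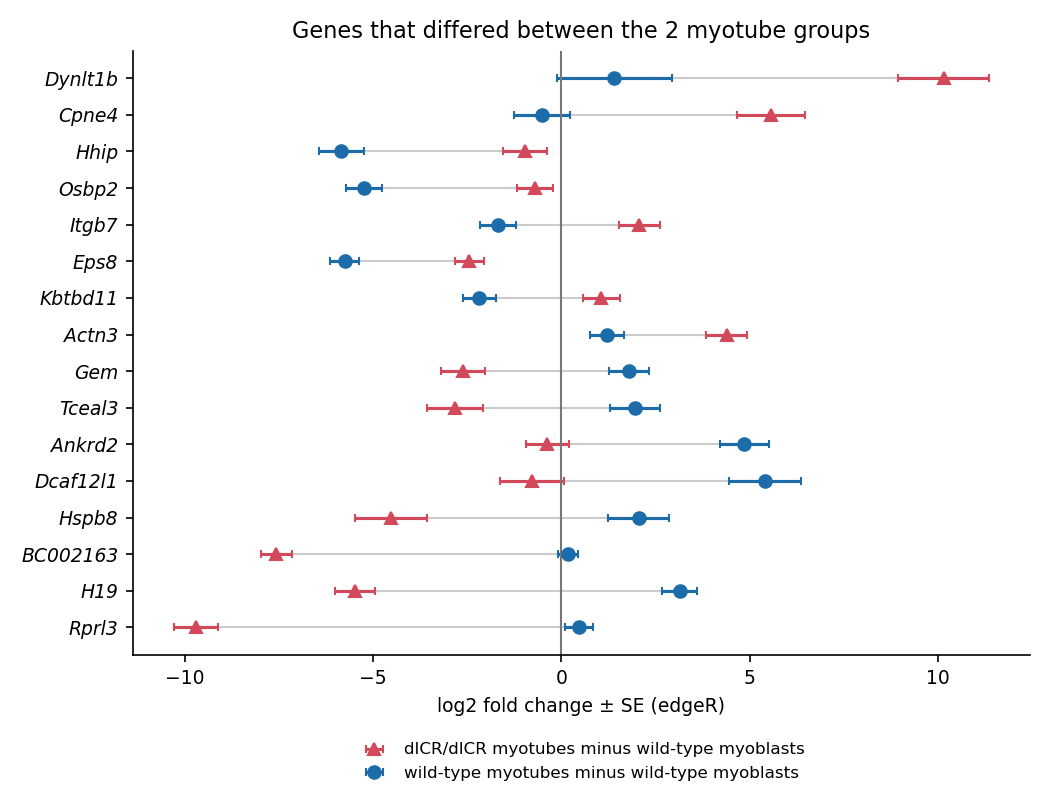
Log2 fold change ± SE (edgeR) from the wild-type myoblasts for the 16 genes named from the test between the myotube groups. Red triangles are dICR/dICR myotubes (n = 2), blue circles wild-type myotubes (n = 3), and the grey line joins the 2 values of a gene. Ankrd2 and Dcaf12l1 lie near 0 in the mutant and above 4 in wild type, while Hhip and Osbp2 lie near 0 in the mutant and below -5 in wild type.

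The libraries were checked for their labels and for other cells. All 8 skeletal myoblast markers were tested. Their summed level was 2510 and 2910 CPM of the unscaled total in the myoblasts, 5520 and 7840 in the mutant myotubes, and 7900 to 10700 in wild-type myotubes. The members were split, with 6 higher and 2 lower in the mutant myotubes by log2 fold change. Myog stood at 144 and 141 in the myoblasts and 1220 and 1620 in the mutant. The 2 lower were Pax7, at 90.4 and 115, then 37.4 and 46.5, and Myf5, at 133 and 141, then 29.9 and 75.6. Fibroblast markers (14 genes, 4 under 1 CPM in all 7 libraries) summed to 462 to 490 CPM in the myoblasts, 157 to 435 in the mutant and 245 to 1070 in wild-type myotubes. Their highest value was in wild-type myotube 2, with 843 CPM of Col3a1, and 75.7 of Pdgfrb against at most 10.6 elsewhere. The 8 smooth muscle and pericyte markers summed to 140 to 155 in the myoblasts, 1200 to 2320 in the mutant and 2410 to 4440 in wild-type myotubes, and most of this was Acta2, which early myotubes also express, while Myh11 stayed at 0.116 to 0.603. Markers of macrophages, endothelium, adipocytes, Schwann cells and erythroid cells summed to at most 16.8 in every library, with 4 of 7 erythroid markers at 0 throughout. Their part in the results was not tested. Xist and the Y-linked Ddx3y were both present in each of the 7 libraries, at uneven levels. In dICR/dICR myotubes 1 and 2 Xist stood at 37 and 177 CPM and Ddx3y at 101 and 19.9 CPM. Wild-type myotubes 1 to 3 held 64.8, 231 and 253 CPM of Xist and 130, 37.1 and 85.1 CPM of Ddx3y. The 2 myoblast libraries were alike, at 96.5 and 106 CPM of Xist and 32.8 and 27.5 CPM of Ddx3y. The part of sex in the results was not tested.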

How the data were processed

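RNA was extracted from cells with an RNA integrity number over 9 and depleted of ribosomal RNA, per the labels. The authors deposited a table of unnormalised counts for each gene, and reads were processed with TopHat2 and HTSeq on mm9, per the submitters' processing notes. The labels describe Illumina and SOLiD sequencing, and do not assign libraries to either. The 7 libraries over 20 M counts were fitted in R 4.3.3 with edgeR 4.0.16: filterByExpr (minimum count 10, total 15), TMM scaling, 1 quasi-likelihood model with 3 group means and 4 residual degrees of freedom, two-sided tests, and Benjamini-Hochberg adjustment over 14952 genes, called under 0.05. DESeq2 1.42.0 and limma 3.58.1 were alternatives. The script was tested on simulated data. Log2 CPM used a prior count of 2. Of 23366 names in the table, 23207 matched a RefSeq symbol or synonym and 27 had the form of dates, of which 2 were repeated.

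Genes were named by rule: H19, Igf2, Cdkn1c, Myod1, Myog, Pax7 and Mki67; the 12 highest and 12 lowest called genes of the main comparison and the 8 highest and 8 lowest between the myotube groups, each with at least 10 CPM in the higher group and no overlap; and, per list, up to 4 called members and each member called between the myotube groups. Other genes named in the text were chosen after their values were seen. The libraries, 20 gene lists and rule were chosen with earlier results of these data known. Alternatives were the groups entering the fit, the tool, scaling, filter, a replicate term and leaving out each library. Each fitted library held 35.56 M counts or more, and groups of 2 or 3 libraries limit the precision.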

Additional observations from a re-analysis of the deposited data

How the results depend on the processing

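The number of genes called between dICR/dICR myotubes and wild-type myoblasts was 2740 with only these 2 groups in the fit and 2257 with DESeq2, and it ranged from 24 to 1988 over the fits leaving out 1 library. On the wild-type path it was 5267 with all 13 libraries and the depth set as a term, and 253 to 4691 with 1 library left out, the lowest values being those without a myoblast library. Between the myotube groups it was 3 with only these 2 groups, 425 with all 13 libraries, 1023 with DESeq2, 171 with limma voom, 46 with library size in place of TMM and 291 with no filter on low counts, and it ranged from 0 to 1375 with 1 library left out. The shallow wild-type count ranged from 637 to 3693 with 1 library left out (637 without myoblast 3, 790 without myoblast 4, 1547 without myotube 5, against 2845). Where a fit leaves 1 library in a group, that library is assumed to vary like the others. The cause of these moves was not tested.

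The deviations of same-numbered libraries from their group means had correlations of -0.335 to 0.079. In a group of 2 libraries the 2 deviations mirror each other, so these values cannot decide whether the numbers pair the libraries. With a replicate block the counts were 675 on the mutant path, 1224 on the wild-type path and 2 between the myotube groups.

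The difference in distance from the myoblasts, dICR/dICR minus wild-type myotubes, was -0.257, and ranged from -0.361 to -0.19 over its alternatives. Library size in place of TMM moved the median of all genes from 0.024 to -0.235 on the wild-type path and from -0.022 to 0.198 between the myotube groups. It then called 1253 genes higher and 2263 lower on the wild-type path, and 28 higher and 18 lower between the myotube groups, against 41 and 65. On the mutant path the median was -0.008.

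Signs turned for values near 0 on the mutant path. With all 13 libraries and the depth set as a term, Cdkn1c had 0.09, Mki67 -0.45 and the median of the fusion list -0.01. Leaving out 1 library gave -0.48 to 0.34 for Cdkn1c and -0.24 to 0.78 for Mki67, each between the fits without dICR/dICR myotube 2 and without dICR/dICR myotube 1, and -1.01 to 0.10 for the mitosis median, positive without dICR/dICR myotube 2. Of the 26 named genes called on the mutant path, 8 passed without either myoblast library (AI593442, Ano1, Areg, BC002163, Irx1, Nr1h5, Perp and Rprl3), 19 without dICR/dICR myotube 1 and 18 without dICR/dICR myotube 2. Over the 46 values of named genes, 479 of 644 alternatives kept direction and side of the threshold, 159 lost the call, 2 gained it and 4 turned sign. No fit at reduced depth was run.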
